A study of Drosophila melanogaster with 20 samples.

Results

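Germline and maternal transcripts of Drosophila melanogaster were followed through RNA sequencing libraries of brain and fat body, the insect tissue that stores fat and sugar and secretes yolk proteins. The set held 8 genes of the 13972 whose symbol named a single table row: osk, nos, vas, bcd, grk, orb, aub and piwi. They were chosen by name, as genes of the ovary germline, with earlier results of these data known. Every member had an entry for all 20 libraries, which was 0 in some brain libraries for osk and nos. The study asked what a sugar-rich diet, used as a diet-induced model of type 2 diabetes, changed in brain and fat body. All flies were wild-type Oregon-R females listed at an age of 5 days, which had fed for 5 days on normal food (ND) or a high sugar diet (HSD). Each tissue and diet gave 5 libraries, called here by diet and number (ND 1 to ND 5, HSD 1 to HSD 5). No transgene or mutation was listed for any group, nor how many animals were dissected for a library.

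In the ovary, nurse cells make maternal RNAs and proteins that are carried into the oocyte. There oskar builds the germ plasm at the posterior end, and bicoid, nanos and gurken RNAs are placed and translated at fixed positions so that the body axes form. The vasa helicase marks germ cells at every stage, and the Piwi proteins use small RNAs to silence transposons in the gonad. These genes are known mainly from the gonad, so their RNA in a dissected fat body is read here as ovary transcript, and the tables hold no value that separates the source tissue of a read. In bulk RNA, fewer germ cells and less RNA per germ cell cannot be told apart. Symbols were matched by case, because nos (nanos) and Nos (nitric oxide synthase) are different genes: Nos stood at an RPKM (reads scaled to transcript length and to the library's total) of 35.4 ± 3.71 (SD, n = 5) in the ND brain and 0.775 ± 0.276 in the ND fat body.

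Reads on genes, recovered from the RPKM steps, ranged from 21731798 to 46262485 in the brain libraries and from 5595292 to 40428225 in the fat body libraries. The 3 fat body libraries ND 4, ND 5 and HSD 4 held 321, 95 and 401 genes with 1 to 3 reads, against 1051 to 1205 in the other fat body libraries. Both tissues carried their markers. The summed RPKM of 13 neuron and glia genes was 2861 to 3763 in brain libraries against 25.7 to 49.96 in fat body libraries, and that of 10 fat body genes was 219 to 990 against 2836 to 4904. A list of 22 male germline genes summed to 1.505 to 9.42 in the fat body, with 13 genes at 0 in all 5 libraries of each diet. Their brain sum of 51.9 to 97.3 was mostly bol, at 93.7% of the ND and 93.1% of the HSD mean.

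The posterior germ plasm genes came first. Oskar, which nucleates the germ plasm, stood at an RPKM of 92.6, 96.0, 102, 101 and 101 in ND fat body libraries 1 to 5, and at 3.08, 256, 98.6, 163 and 67.1 in HSD libraries 1 to 5. The ND libraries lay within 1.10-fold of each other, and the diets overlapped. The HSD libraries spanned 83.1-fold, a span that rests on HSD 1, since the other 4 ran from 67.1 to 256. The coefficient of variation of osk over the ND libraries was 4.11%, and 11 of the 8223 genes tested in the fat body (0.134%) had a smaller one, against a median gene at 36.0%. On high sugar it was 82.0%. Both spreads were taken on the deposited RPKM, and spreads under other scalings were not computed. In the brain, 6 of 10 libraries held no osk read, which allows an RPKM of up to 0.0267 to 0.0462 in them (3 reads, counting error only). The others held 2, 73 and 1 reads in ND 1, ND 4 and ND 5, and 1 read in HSD 5. Brain ND 4, at 0.676, was the highest brain library for osk. By Release 6 names, osk overlaps the noncoding genes lncRNA:osk on its own strand and asRNA:CR44020 on the opposite one. No value for either was matched by symbol.

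Nanos, the translational repressor that oskar anchors at the posterior, stood at 13.5, 10.5, 49.6, 25.6 and 6.68 in ND fat body libraries 1 to 5 and at 1.44, 23.0, 58.2, 40.2 and 8.70 in the HSD libraries. Vasa, the RNA helicase of the germ plasm, stood at 9.28, 11.3, 45.5, 25.3 and 15.2 on normal food and at 0.987, 27.9, 32.4, 29.2 and 11.7 on high sugar. Library 3 was the highest of its diet for both genes on both diets, and HSD 1 was the lowest for both. The diets overlapped for each. In the brain, nos reached 0.238 (ND 4, 21 reads) and vas 0.224 (HSD 4, 20 reads) at most, with 0 to 13 and 3 to 19 reads in the other libraries. Both overlap other protein-coding genes in the Release 6 annotation, used for names only. On the opposite strand nos overlaps CG11779, at 38.4 ± 3.75 in the ND brain, and Nsun5, and vas overlaps vig, at 185 ± 16.7. On its own strand vas overlaps solo, whose reads a strand setting would not separate, and no value for solo or Nsun5 was matched by symbol. The strand setting of the counting is not given in the sources used here.

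**Figure D1:**
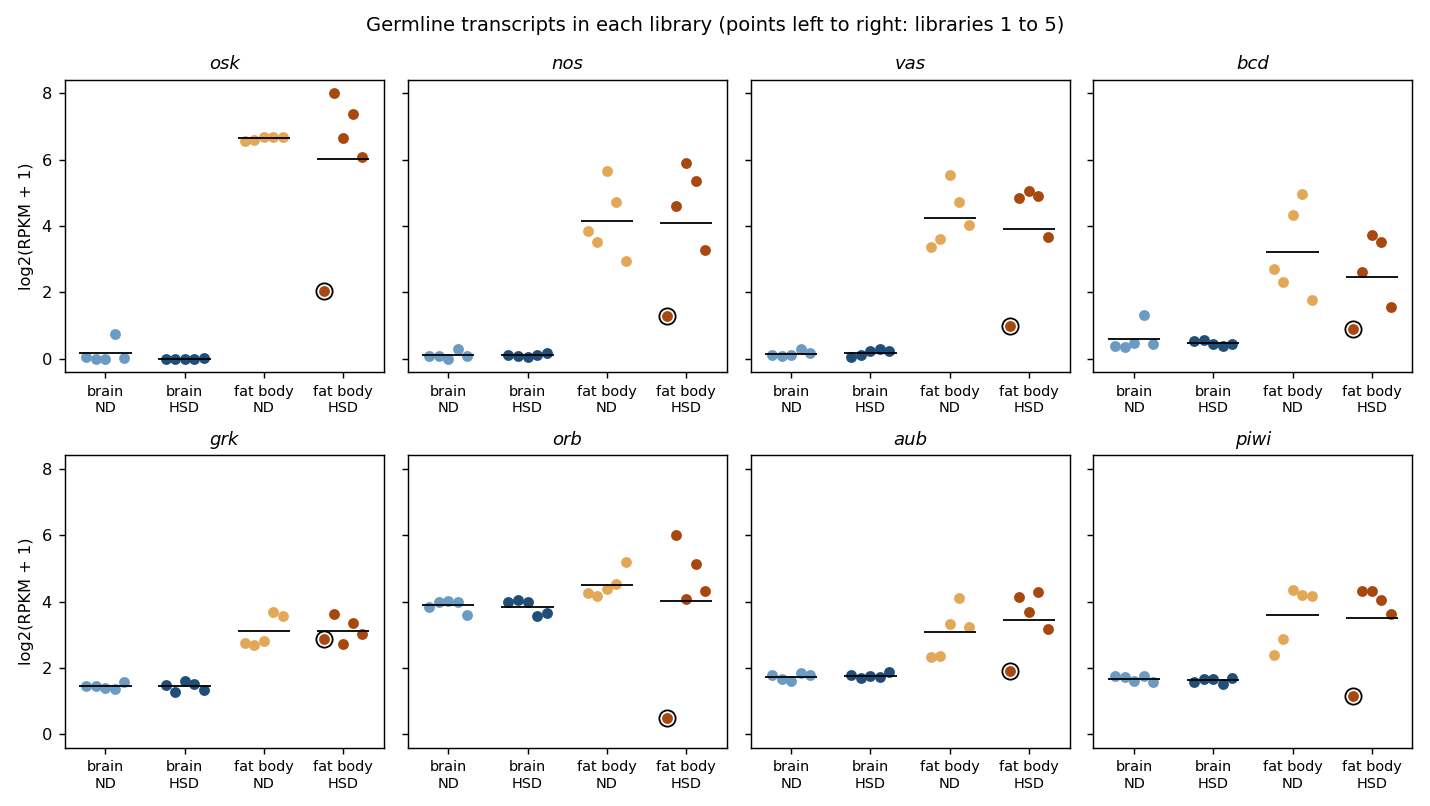
Level of each germline gene, log2(RPKM + 1), in the 5 libraries of each tissue and diet, with the group mean as a line; fat body HSD 1 is ringed. HSD 1 was the lowest fat body library for 7 of the 8 genes, grk excepted, and osk varied least among the ND fat body libraries (92.6 to 102 RPKM).

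Next came the axis-patterning RNAs. Bicoid, the anterior homeodomain protein, stood at 5.53, 3.98, 19.2, 30.4 and 2.38 in ND fat body libraries 1 to 5 and at 0.860, 5.16, 12.2, 10.5 and 1.93 in the HSD libraries. The highest library was ND 4 and the lowest HSD 1, and the diets overlapped. Its brain values were 0.269 to 0.490 in 9 libraries and 1.49 (143 reads) in ND 4. Gurken, the TGF-alpha-like ligand that the oocyte sends to the follicle cells, stood at 5.75, 5.41, 6.10, 12.0 and 10.8 on normal food and at 6.38, 11.3, 5.66, 9.31 and 7.06 on high sugar. It spanned 2.21-fold over the 10 fat body libraries, the least of the 8 genes, and HSD 1 ranked 5 of 10 from the bottom. Brain values of grk were 1.43 to 2.06. On the opposite strand grk overlaps Akap200, which stood at 213 ± 75.0 in the ND fat body, 319 ± 72.2 in the HSD fat body, 388 in HSD 1 and 77.0 ± 7.47 in the ND brain. Reads of the pair cannot be told apart without strand, and the part of Akap200 in the grk values was not tested.

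Orb is the RNA-binding protein that switches on translation of oskar and gurken. It stood at 18.1, 17.0, 19.7, 22.3 and 35.2 in ND fat body libraries 1 to 5 and at 0.420, 62.8, 15.8, 34.3 and 19.1 in the HSD libraries. Here ND 5 lay above the other ND libraries, HSD 1 was the lowest by 37.6-fold, and HSD 2 was the highest. Unlike osk, nos and vas, orb was well read in every brain library, at 13.9 ± 1.74 (SD, n = 5) for ND and 13.6 ± 2.15 for HSD, the 10 values lying between 10.9 and 15.6. In HSD 1 the fat body value was therefore below all 10 brain values.

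The Piwi-family proteins closed the set. Aubergine, the cytoplasmic member, stood at 3.99, 4.15, 9.09, 16.4 and 8.50 in the ND fat body and at 2.78, 16.6, 11.8, 18.6 and 7.97 in the HSD fat body. Piwi, the nuclear member, stood at 4.28, 6.31, 19.3, 17.4 and 17.2 and at 1.24, 19.1, 18.8, 15.5 and 11.3. For both genes ND 1 was the lowest ND library and HSD 1 the lowest of all 10, and the diets overlapped. The ratio of piwi to aub ranged from 0.447 in HSD 1 to 2.12 in ND 3. Brain values were 2.06 to 2.65 for aub and 1.87 to 2.37 for piwi. SCAR, which overlaps piwi on the other strand, stood at 78.4 ± 2.22 in the ND brain and 22.4 ± 6.76 in the ND fat body. On the opposite strand aub overlaps the protein-coding gene TTLL4A, for which no value was matched by symbol.

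On normal food osk was above each other member in every fat body library, since its lowest value of 92.6 exceeded the highest other value of 49.6. The means then ran from orb (22.5 ± 7.42, SD, n = 5), vas (21.3 ± 14.9) and nos (21.2 ± 17.4) through piwi (12.9 ± 7.01) and bcd (12.3 ± 12.1) to aub (8.42 ± 5.04) and grk (8.01 ± 3.12). Neighbours in that order after osk overlapped in their libraries. The share of osk in the summed RPKM of the set was 37.6% to 62.1% over 9 fat body libraries and 17.9% in HSD 1, where grk was the highest member.

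The members did not keep fixed proportions from library to library. The osk to nos ratio was 15.2 in ND 5, 11.1 in HSD 2 and 1.69 in HSD 3, although osk itself was at 101 and 98.6 in ND 5 and HSD 3. The osk to grk ratio was 0.482 in HSD 1 and 8.47 to 22.6 in the other fat body libraries. The bcd level was 119% of the nos level in ND 4 and 21.0% to 59.7% of it elsewhere. A library high in osk was thus not always high in nos, and osk against nos on the plot of pairs shows the ND libraries stacked at almost the same osk level. Library ND 4 had 5595292 reads on genes and bcd rested there on 434 reads.

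**Figure D2:**
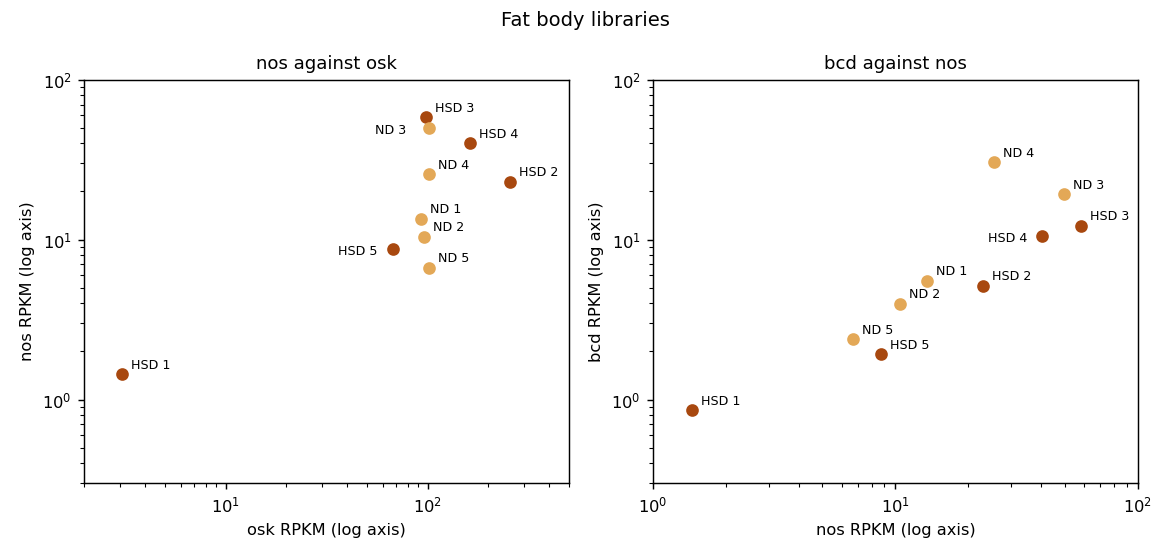
RPKM of nos against osk and of bcd against nos (log axes) in the 10 fat body libraries, ND in light and HSD in dark colour. HSD 1 lies apart at 3.08 osk and 1.44 nos, while the ND libraries share an osk level of 92.6 to 102 across nos levels of 6.68 to 49.6.

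How far the germline set stood above the brain was tested on each diet with limma on log2(RPKM + 1), with Benjamini-Hochberg adjustment over all genes tested. On normal food all 8 members were higher in the fat body, against a background of 23.2% of the 9219 genes tested called higher and 51.6% called lower. In the brain alone osk, nos, vas and bcd were below the filter of a mean RPKM of 1, so these 4 entered the test through the fat body, where they were high, and their calls are a description, not support, beside that background. The largest difference was that of osk (6.48 ± 0.16 log2, SE, adjusted p = 1.41e-11), followed by vas (4.10 ± 0.36, adjusted p = 9.38e-07) and nos (4.03 ± 0.43, adjusted p = 5.08e-06). The differences of bcd, piwi, grk and aub were 2.63, 1.92, 1.65 and 1.33, with adjusted p of 0.00131, 0.000549, 3.10e-05 and 0.00232. The smallest was that of orb (0.61 ± 0.19, adjusted p = 0.0133). Each member's 5 fat body libraries lay above its 5 brain libraries, as for 19.3% of all genes tested. This log2(RPKM + 1) scale understates differences of genes that are near 0 in a tissue, as osk, nos and vas are in the brain.

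On high sugar 7 of the 8 members were called higher in the fat body, against 27.2% of the 9315 genes tested called higher and 47.3% lower, with osk at 6.02 ± 0.92 (adjusted p = 0.000123), nos at 3.98 ± 0.73, vas at 3.71 ± 0.68, bcd at 2.00 ± 0.49, piwi at 1.87 ± 0.53, and aub and grk at 1.67 each (largest adjusted p = 0.00806, limma). The exception was orb, at 0.16 ± 0.83 (adjusted p = 0.872, limma). As on normal food, osk, nos, vas and bcd were below a mean RPKM of 1 in the brain. They entered the test through the fat body, where they were high, so their values beside the background are a description, not support. Without fat body HSD 1 the orb difference was 1.03 (adjusted p = 0.0213) and that of osk 7.02, and without HSD 2 that of orb was -0.34. The libraries of the tissues did not overlap for 6 members, against 22.5% of all genes tested, and overlapped for orb and piwi, in both cases through HSD 1 (0.420 and 1.24). RPKM scaling bears on the background: the median gene stood at -0.61 (log2) in the fat body on normal food but at -0.19 with median-ratio scaling and 0.13 with quantile scaling, where the share of calls that were higher was 31.0%, 43.5% and 54.2% in turn. On high sugar the medians were -0.40, -0.15 and 0.16 and the shares 36.5%, 44.5% and 54.8%. All 8 members stood above the median gene on both diets under each of these scalings. For osk, nos, vas and bcd, which entered through the fat body, that place is a description and not support.

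**Figure D3:**
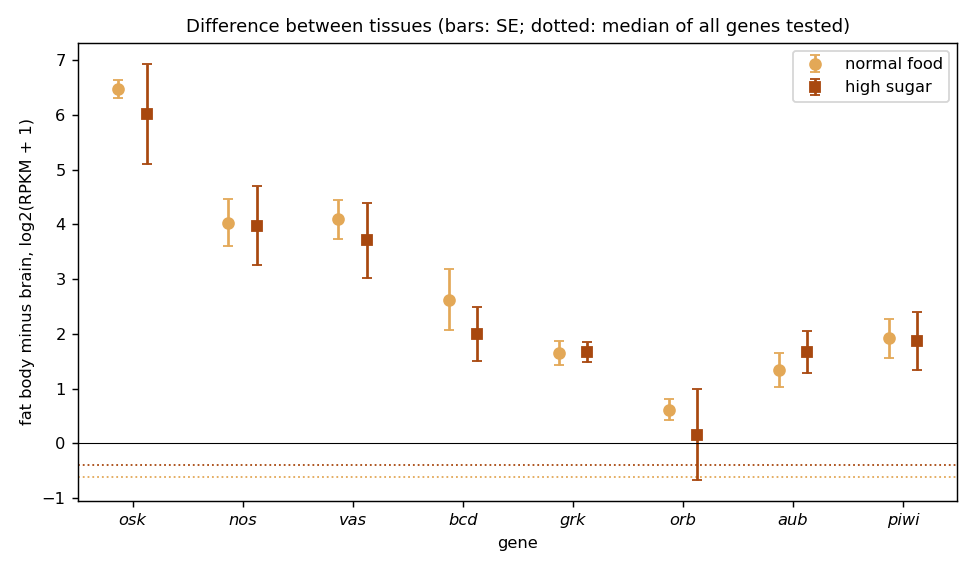
Fat body minus brain difference of each germline gene in log2(RPKM + 1), with its SE, on normal food (circles) and on high sugar (squares), 5 against 5 libraries. The differences ran from 6.48 for osk to 0.61 for orb on normal food, and dotted lines mark the median gene at -0.61 and -0.40.

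Relatives of the members gave calls in both directions between the tissues, and they were not tested against the members. Most come from a list of relatives and partners known to be expressed in somatic cells. Among Argonaute genes, AGO3, the remaining Piwi-family gene, was higher in the fat body (9.94 ± 8.25 against 0.293 ± 0.124 RPKM on normal food, 2.78 log2, limma adjusted p = 0.000101), and AGO1 of the microRNA pathway was lower (26.8 ± 3.26 against 119 ± 18.3, -2.11 log2, adjusted p = 9.10e-08). AGO2 of the siRNA pathway did not pass the test (76.9 ± 8.16 against 82.8 ± 6.01, -0.11 log2, adjusted p = 0.372), and after median-ratio rescaling it was called higher (0.36, adjusted p = 0.0356). The orb paralog orb2, a translational regulator of neurons, was lower in the fat body (2.92 ± 1.26 against 44.5 ± 8.57, -3.57 log2, adjusted p = 7.13e-08). The nanos partner pum was lower by -2.03 log2 (adjusted p = 9.26e-05). The nanos partner brat did not pass (-0.73 ± 0.43, adjusted p = 0.139), nor with any scaling, and its sign turned with quantile scaling (0.12). The vasa-like helicase bel was called lower (-0.44, adjusted p = 0.00758) and stood at 0.03 after median-ratio rescaling (adjusted p = 0.821). On high sugar AGO1, orb2 and pum were called lower (-2.05, -3.69 and -2.03) and AGO3 higher (2.75), while bel (-0.19, adjusted p = 0.326), brat (-0.72, adjusted p = 0.271) and AGO2 (0.12, adjusted p = 0.469; 0.40 and adjusted p = 0.136 after median-ratio rescaling) did not pass the limma test. AGO3 was named after its values were seen. Below the filter of a mean RPKM of 1 in the brain, it entered these tests through the fat body, so its calls are a description.

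Wider lists gave the surroundings, as a description. In the brain alone, 10 oogenesis and meiosis, 13 other piRNA pathway and 6 eggshell genes passed the filter of a mean RPKM of 1. Others that were tested entered through the fat body, where they were higher, so their calls are not support. Of all 9219 genes tested on normal food, 23.2% were called higher and 51.6% lower, with the median gene at -0.61. Of 21 other oogenesis and meiosis genes tested on normal food, 16 were called higher in the fat body, 2 lower and 3 neither, with a median of 3.33 log2. Of 20 other piRNA pathway genes, 12 were higher, 3 lower and 5 neither, with a median of 1.19. Of 18 germ plasm and translational control genes, 7 were higher and 7 lower, with a median of 0.01. In this last list stau, which anchors oskar and bicoid RNA, stood at 54.0 to 74.4 in the ND brain and 6.36 to 18.2 in the ND fat body, and tud, a germ plasm scaffold, at 69.7 ± 3.98 and 33.5 ± 7.31. In contrast swa, which helps localise bicoid RNA, stood at 0.283 ± 0.366 and 35.2 ± 24.3. Stau, tud, swa and Egfr were named after their values were seen. Of 13 other maternal axis genes 6 were higher and 3 lower (median 0.68), of 20 eggshell genes 13 were higher and 2 lower (median 3.57), and all 3 yolk protein genes were higher (median 6.59). Of 9 genes of gurken to Egfr signalling 1 was higher, the receptor gene Egfr (56.6 ± 5.43 against 3.85 ± 2.25), and 6 were lower. On high sugar, 15 of 21 oogenesis and meiosis genes and 12 of 21 piRNA pathway genes were called higher in the fat body. Of all 9315 genes tested there, 27.2% were called higher and 47.3% lower.

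Whether high sugar changed the germline set in the fat body was tested over 5 ND and 5 HSD libraries. No member passed the test (limma, Benjamini-Hochberg), nor did any of the 8223 genes tested (0%), of which 785 (9.55%) had an unadjusted p under 0.05. None of the 8 members had such a p, and limma-voom on recovered reads gave 0 calls and 296 unadjusted. The differences were -0.61 ± 0.87 log2 for osk, -0.06 ± 0.80 for nos, -0.35 ± 0.72 for vas, -0.75 ± 0.70 for bcd, 0.02 ± 0.29 for grk, -0.49 ± 0.80 for orb, 0.36 ± 0.48 for aub and -0.10 ± 0.61 for piwi (SE). Adjusted p ran from 0.762 to 0.989 (limma), and two-sided exact permutation p from 0.389 to 0.952, where the smallest this test can give is 0.00794. All 8 members overlapped between the diets, as did all but 1.91% of the genes tested. The members' median was -0.23 and that of all genes 0.19, which median-ratio rescaling moved to -0.01, and 1 of the 8, aub, lay above the median gene under either scaling. With SEs of 0.48 to 0.87 for 7 of the 8, changes of several SEs could also have gone uncalled with these libraries. In the same fit the fat body genes Lsp2 (-4.54 ± 0.94, limma adjusted p = 0.182) and tobi (-1.72 ± 0.40, adjusted p = 0.241) were not called.

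The signs of osk, vas and orb turned when HSD 1 was left out and with no other single library. Without HSD 1 the differences were 0.39 for osk, 0.64 for nos, 0.37 for vas, 0.38 for orb, 0.48 for piwi, 0.74 for aub, 0.08 for grk and -0.36 for bcd (adjusted p 0.591 to 0.914, limma). nos and piwi turned positive there too, and each did so without other single libraries: nos stood at 0.32 without ND 3, 0.0852 without ND 4 and 0.14 without HSD 5, and piwi at 0.0819, 0.0469 and 0.0423 without ND 3, ND 4 and ND 5. grk, near 0 with all libraries, turned negative without any of 5 libraries (ND 1, ND 2, ND 3, HSD 2 and HSD 4; lowest -0.11), and bcd and aub kept their sign throughout. Within libraries 1 to 3, which hold HSD 1, osk stood at -1.05 and nos at -0.43, and within libraries 4 and 5 at 0.0468 and 0.48. That division follows an earlier look at these libraries, and no label names a batch. bcd was negative in both divisions (-0.70 and -0.83) and on leaving out any library (-1.12 to -0.31), without a call. With same-numbered libraries as pairs its unadjusted p was 0.0499 and its adjusted p 0.371 (limma).

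**Figure D4:**
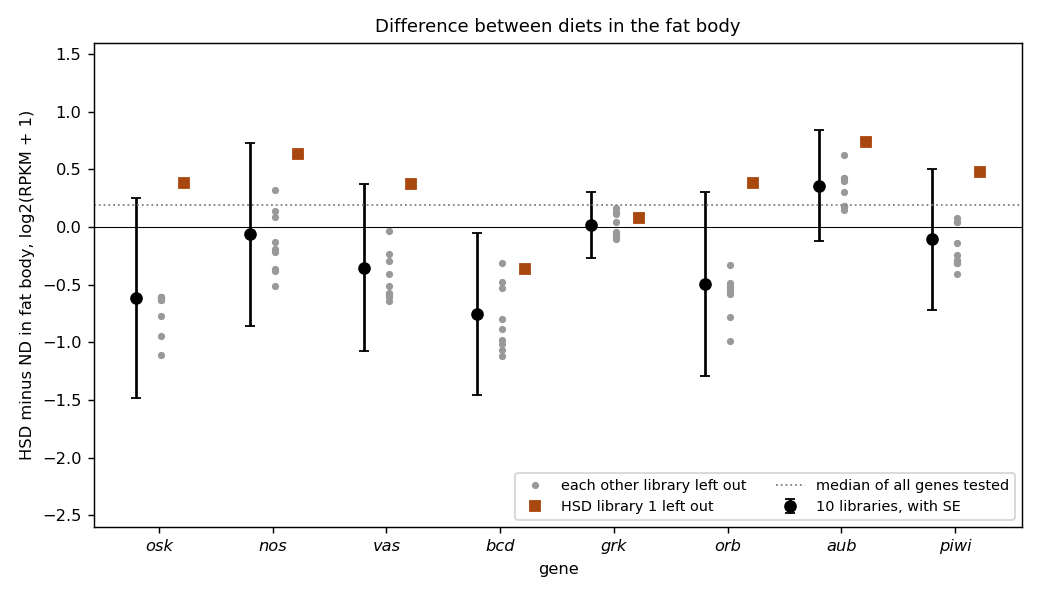
HSD minus ND difference of each germline gene in the fat body, in log2(RPKM + 1): black circles, all 10 libraries with SE; grey points, each other library left out in turn; squares, HSD 1 left out. For osk, vas and orb the 10-library value is negative and the value without HSD 1 is positive (0.37 to 0.39), with no other single library turning the sign.

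Fat body library HSD 1 was described on its own. It was the lowest of the 10 fat body libraries for 7 of the 8 members, against 10.8% of all genes tested. The next lowest library exceeded it 37.6-fold for orb, 21.8-fold for osk, 9.41-fold for vas, 4.64-fold for nos, 3.44-fold for piwi, 2.24-fold for bcd and 1.43-fold for aub. In HSD 1 osk, nos, vas, grk and aub lay above their highest brain values (3.08 against 0.676, 1.44 against 0.238, 0.987 against 0.224, 6.38 against 2.06 and 2.78 against 2.65), with 141 reads for osk and 36 for vas. orb and piwi lay below every brain value (0.420 and 1.24, against highest values of 15.6 and 2.37). bcd, at 0.860, lay below brain ND 4 (1.49) and above all other brain libraries (at most 0.490). HSD 1 was also the lowest library for 16 of 22 oogenesis and meiosis genes, 13 of 21 other piRNA pathway genes, 10 of 18 germ plasm and translational control genes and 5 of 20 eggshell genes. The 10 fat body markers summed there to 3812, inside the range of the other HSD libraries (2836 to 4230), and the neuron and glia markers to 42.2. HSD 1 held 15966439 reads on genes. The part of depth and of other tissue in these values was not tested.

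Summed over the 8 members, ND fat body libraries 1 to 5 stood at 153, 155, 270, 251 and 197 RPKM and HSD libraries at 17.2, 421, 254, 321 and 135. The brain libraries stood at 17.6 to 24.2, where orb made up 65.9% of the ND mean. The oogenesis and meiosis list summed to 504, 528, 1936, 2191 and 398 on normal food and to 69.8, 1256, 2210, 2222 and 376 on high sugar. ND 3, ND 4, HSD 3 and HSD 4 were thus high, and ND 5, HSD 5 and above all HSD 1 low. The maternal thioredoxin gene dhd, named after its values were seen, led this list at 500.3 ± 430.1 and 546 ± 469 RPKM.

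Eggshell genes, which the follicle cells express late in oogenesis, followed another order, except that HSD 1 was again the lowest. Their sum was 7662, 7061, 144, 12594 and 200 in ND libraries 1 to 5 and 30.4, 1081, 102, 128 and 1571 in HSD libraries 1 to 5. In HSD 1 the eggshell sum lay inside the range of the brain libraries (28.0 to 38.2). ND 3 was the highest ND library for nos and vas and the lowest for the eggshell. HSD 3 and HSD 4 stood at 254 and 321 in the germline sum and at 102 and 128 in the eggshell. Other libraries differed: HSD 2, the highest in the germline sum (421), stood at 1081 in the eggshell. ND 4, at 251 in the germline sum, had the highest eggshell sum (12594). No eggshell gene passed the diet test (0 of 20, 4 with an unadjusted p under 0.05, median -2.10 log2). The smallest p belonged to Cp15 (-2.51 ± 0.80, limma adjusted p = 0.373) and Cp19 (-4.81 ± 1.91, adjusted p = 0.469). The yolk protein genes, which both fat body and follicle cells express, summed to 64036 to 161446 on normal food and 37899 to 88451 on high sugar. Their differences were -1.12 ± 0.28 for Yp3, -1.43 ± 0.36 for Yp2 and -0.97 ± 0.26 for Yp1, with limma adjusted p of 0.248, 0.248 and 0.263.

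**Figure D5:**
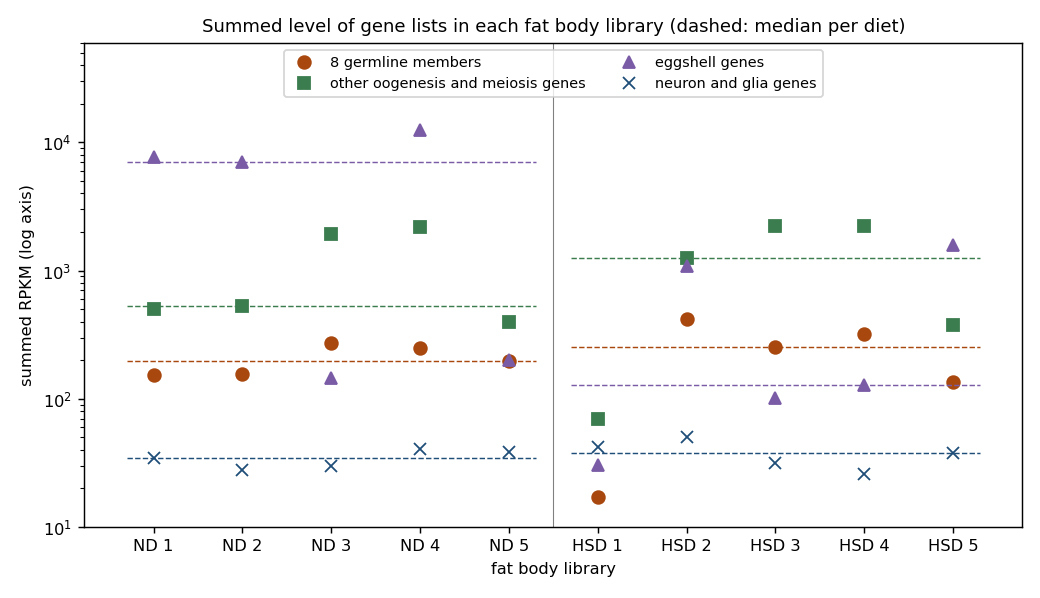
Summed RPKM (log axis) of the 8 germline genes and of 3 gene lists in each fat body library, with the median per diet dashed. The germline sum was 17.2 in HSD 1 and 135 to 421 in the other libraries. The eggshell sum ranged from 30.4, also in HSD 1, to 12594, with the other libraries in a different order.

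The other lists gave no call between the diets in the fat body (limma, 0 genes called). Their values are read against the median of all genes, which stood at 0.19 on this scale, so the medians of the oogenesis, germ plasm, piRNA and maternal axis lists lay below that of all genes, whatever their counts of higher means. Of 22 oogenesis and meiosis genes 6 had higher and 16 lower means on high sugar, with a median of -0.15 and no unadjusted p under 0.05, and the smallest p belonged to spn-B (0.39 ± 0.42). Of 18 germ plasm and translational control genes 14 had higher means, with a median of 0.09, led by vls (0.71 ± 0.40, adjusted p = 0.575). Of 21 piRNA pathway genes 15 had higher means, with a median of 0.06, and 1 had an unadjusted p under 0.05, CG5508 (mino), at -0.34 ± 0.16 (adjusted p = 0.521). Of 8 genes of gurken to Egfr signalling 7 had higher means, with a median of 0.39, led by the gurken export factor cni (0.43 ± 0.17, adjusted p = 0.486) and mirr (0.77 ± 0.34, adjusted p = 0.508). Of 15 other maternal axis genes 8 had higher means, with a median of 0.11, led by tub (0.45 ± 0.22, adjusted p = 0.536).

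In the brain the diets did not separate the members either. grk, orb, aub and piwi passed the filter of a mean RPKM of 1, and osk, nos, vas and bcd did not. The 4 tested differed by -0.00 ± 0.09, -0.04 ± 0.12, 0.02 ± 0.08 and -0.06 ± 0.08 (log2, SE), and neither they nor any of the 8910 genes tested (0%) passed the limma test. 79 genes (0.887%) had an unadjusted p under 0.05 and none of the 4 did, and limma-voom gave 0 calls and 82 unadjusted. All 8 members overlapped between the diets in the brain, as did all but 0.157% of the genes tested, and exact permutation p of the 8 ran from 0.167 to 0.992. Brain ND 4, the highest brain library for osk, nos and bcd, also had the highest oogenesis and meiosis sum (87.3, others 59.8 to 67.7), and its yolk protein sum of 3338 lay below that of ND 5 at 9360, where osk had 1 read. The part of other tissue in these values was not tested.

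Whether the diet difference itself differed between fat body and brain was tested over all 20 libraries. No member passed (limma adjusted p 0.964 to 1.00), nor did any of the 9280 genes tested (0%), of which 598 (6.44%) had an unadjusted p under 0.05 and none was a member. limma-voom gave 0 calls and 237 unadjusted. The estimates ran from -0.63 ± 0.79 for bcd to 0.34 ± 0.52 for aub.

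Genes whose level moved most like the set across the 10 fat body libraries were found by Pearson's r with the members' mean z-score of log2(RPKM + 1), as a description of libraries that share HSD 1 as an extreme. The closest were CG9925 (r = 0.99 over 10 libraries, 0.98 without HSD 1), rpk (0.98, 0.94), Pvf1 (0.98, 0.94), aret (0.97, 0.95), which encodes the oskar repressor Bruno, and the piRNA factor del (0.97, 0.93), followed by CG6293, zpg, CG7433, ovo and gwl (0.97 each, 0.90 to 0.93 without HSD 1). Member by member, osk was closest to the yolk protein receptor gene yl (0.98, 0.86 without HSD 1) and to orb (0.98, 0.85). The level of yl ran 74.5, 81.1, 105, 106 and 76.1 on normal food and 2.75, 214, 114, 94.6 and 52.9 on high sugar. nos was closest to sced and the meiosis gene mtrm (0.98 each), vas to gwl (0.99) and the maternal tubulin gene alphaTub67C (0.98), bcd to Cyp6v1 (0.96), aub to CG5018 (0.97) and piwi to ovo (0.97). grk stood apart, with Ent2 as its closest gene (0.92, 0.96 without HSD 1) and HSD 1 at 42.8 RPKM within an Ent2 range of 29.9 to 58.4.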

How the data were processed

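The 20 tables hold RPKM per gene as deposited by the authors, from uniquely mapped reads of poly(A) RNA, per the labels; TopHat and the dm3 assembly are named without versions in the submitters' processing notes. Of 15080 rows per table, 1107 under 188 repeated symbols were left out, as were 2 symbols not in every table. Reads were recovered from the RPKM steps: 99.9% of nonzero values lay within 0.01 of a whole read. Floors of 3 reads cover counting error only. Fits used limma 3.58.1 in R 4.3.3 with trend on log2(RPKM + 1), a minimum mean RPKM of 1, two-sided, threshold 0.05. Only the diet fits were also run on simulated data. The simulated spread was set and not taken from the members, so nothing about the members is concluded from it. Recovery and tables used Python 3.11.15 (numpy 2.4.6, pandas 2.3.3). Nothing says that replicates were separate flies, so the p-values here rest on variation among libraries that could be purely technical. Deviations of same-numbered ND and HSD libraries had correlations of 0.30 to 0.66 in brain and 0.13 to 0.65 in fat body, and -0.23 to 0.15 across tissues. Differently numbered libraries were not compared, so these values do not show that same numbers belong together. Pairing by number was run as an alternative, and no label gives a source for it. Members, 12 lists (172 of 178 entries found) and tests were chosen with earlier results of these data known. Named genes are all members, the 4 of each list with the smallest p in the fat body diet fit, fixed relatives and the likeness genes; bol, AGO3, stau, tud, swa, Egfr and dhd, and the overlapping genes and Nos, were named outside this rule, after their values were seen. No coordinates or sequences are given: the reference at hand is Release 6, used for names. Alternatives were another pseudocount, filters, scalings, limma-voom, the pairing, left-out libraries and divisions of the libraries.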

Additional observations from a re-analysis of the deposited data

Results flagged for a closer look

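Of 32 combinations of member and group, 5 held a library whose gap to its neighbour exceeded 0.71 of the range of its 5 libraries. That is the 95% limit for 5 normally distributed values. RPKM near 0 are not so distributed, and no expected count is set beside the 5. In the ND brain, library 4 stood apart for osk (0.676), nos (0.238) and bcd (1.49). In the HSD brain, library 5 stood apart for osk at 0.00753 RPKM, which is 1 read against 0 in the other 4. In the ND fat body, library 5 stood apart for orb at 35.2, against 17.0 to 22.3. Fat body HSD 1 was not among these 5. The rule was run on RPKM and not on the log2 scale of the fits, where flags were not computed. The absence of HSD 1 here does not make it a typical library.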

How the results depend on the processing

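Of 744 values of members under an alternative, 681 had the direction and side of the threshold of the main value, 62 turned direction without a call, and 1, orb between tissues on high sugar without HSD 1 (1.03), gained a call. All 8 calls on normal food and the 7 on high sugar were held under every alternative run. For osk, nos, vas and bcd, which entered these tests through the fat body, that is a description. Calls by diet in the fat body numbered 0 with all libraries and 0 with a replicate block (pairing), and 16 within libraries 1 to 3; leaving out 1 library gave 0 to 19, the latter without fat body HSD 5. The block changed no call of a member. Interaction calls, 0 with all libraries, numbered 23 without fat body ND 4, ND 5 and HSD 4.

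Directions turned as follows (log2). grk between diets in the fat body was -0.18 after median-ratio rescaling, -0.17 after quantile normalization, -0.24 with limma-voom and -0.44 within libraries 4 and 5, and in the interaction -0.17, -0.18 and -0.25 under the first 3 of these. Within libraries 4 and 5 osk was 0.0468, nos 0.48 and brain aub -0.0242. Within libraries 1 to 3 piwi was 0.0658, brain grk 0.019 and brain orb 0.0595. Without ND 4, ND 5 and HSD 4 piwi was 0.15, and 0.21 in the interaction. osk in the interaction was 1.16 with limma-voom, and orb between tissues on high sugar was -0.0792 with a pseudocount of 0.1. Leaving out 1 library in turn gave, between diets in the fat body, -1.11 to 0.39 for osk, -0.51 to 0.64 for nos, -0.64 to 0.37 for vas, -0.11 to 0.17 for grk, -0.99 to 0.38 for orb and -0.40 to 0.48 for piwi. It gave in the brain -0.0414 to 0.0412 for grk, -0.11 to 0.0319 for orb and -0.0121 to 0.0450 for aub, and -0.34 to 1.03 for orb between tissues on high sugar. In the interaction it gave -0.95 to 0.54 for osk, -0.51 to 0.64 for nos, -0.68 to 0.34 for vas, -0.11 to 0.17 for grk, -0.95 to 0.42 for orb and -0.35 to 0.53 for piwi. The cause was not tested.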
